A study of Mus musculus with 6 samples.

Results

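Fibrinogen is the soluble plasma protein that thrombin turns into fibrin, the mesh of a blood clot. It is assembled in the endoplasmic reticulum from paired α, β and γ chains, which the genes *Fga*, *Fgb* and *Fgg* encode. The hepatocyte is its main source, where the 3 genes lie side by side, are transcribed together and rise in the acute phase response through IL-6-type cytokines, with C/EBP factors acting at their promoters. Fibrinogen chain RNA is also found in epithelia outside the liver, the injured kidney tubule among them. Here the 3 chain genes were followed in primary mouse renal tubule epithelial cells (RTECs) with and without TGF-β1, the cytokine used as a fibrotic stimulus. The genes were taken by symbol, 3 of the 46517 genes counted, and they were selected on the read counts of this same contrast, their response to TGF-β1 being already known, so their read counts, levels and log2 differences are given as a description with no test. Only *Fgb* passed the low-count filter into the model of 15862 genes, and *Fga* and *Fgg* are described by their reads.

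RNA sequencing (poly(A) RNA, 50-bp single-end reads) covered 6 cultures of RTECs from kidneys of wild-type FvB mice, which the labels give as aged 4 to 6 weeks and the study's methods as slightly younger. All were grown with EGF and insulin, transferrin and selenium, then kept without serum for 24 h. The 3 CTL cultures received no TGF-β1 and the 3 TGF-β1 cultures received 50 ng/ml for 24 h. The sources used here do not state whether each culture came from its own mouse, so the spread between cultures may be technical in part.

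Totals on genes ranged from 28313080 to 34183497 reads, and 3 counts, the floor used below, equaled 0.0878 to 0.106 CPM (reads scaled to the library's total on genes). Both cultures numbered replicate 2 stood apart from the others. Normalized counts (scaled to a common library size) of the epithelial gene *Epcam* were 2003 and 1693 in CTL and TGF-β1 replicate 2 and between 5161 and 9116 elsewhere, and those of the collagen gene *Col1a1* were 46365 and 58081 against 16034 to 25628. Y-linked transcripts summed to 136 to 154 CPM in the replicate 2 cultures and 0.0627 to 0.177 CPM in the others, although the study's methods name male mice. The female-specific transcript *Xist* was read in all cultures, at 198 to 243 CPM in replicate 2 and 510 to 652 CPM in the others. Both replicate 2 cultures thus held Y-linked and *Xist* RNA together, and the sex of the source animals was not tested. The *Fgb* difference and the counts of list genes are therefore also given without replicate 2. The tubule identity of the cells was otherwise visible: *Pax8* (a kidney lineage factor), *Cdh16* (kidney-specific cadherin) and *Lrp2* (the proximal tubule receptor megalin) had 6534 ± 387, 8280 ± 1160 and 2203 ± 196 normalized counts in CTL (SD, n = 3). Segment markers beyond the proximal tubule were sparse, since the loop and distal tubule list summed to 1.36 to 3.64 CPM in CTL and the collecting duct list to 0.807 to 2.19 CPM. The proximal tubule list summed to 88.4 to 127 CPM in CTL, unevenly over its genes. Its transporter genes *Slc34a1*, *Slc5a2*, *Slc22a6* and *Slc22a8* had 2 to 10, 0 to 2, 2 to 4 and 3 to 12 reads in the CTL cultures.

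The 3 genes lie in a 42140-bp cluster on chromosome 3 (GRCm38, gene models of GENCODE M21). *Fgg* (ENSMUSG00000033860.12) spans chr3:83007724-83015049 on the plus strand, *Fga* (ENSMUSG00000028001.15) follows at chr3:83026076-83033627 on the plus strand, and *Fgb* (ENSMUSG00000033831.5) lies at chr3:83040141-83049863 on the minus strand, pointing back at the other two. Their union exon lengths are 2093, 3010 and 3810 bp. No annotated exon of another gene overlaps *Fga* or *Fgb*. In *Fgg*, 115 of the exonic bases overlap an exon of the noncoding gene *Gm30097*, which itself had 0 reads in all 6 libraries.

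The sequences before the 3 start sites are shown because the chains share a locus but not a level in these cells. They were taken from RefSeq (GRCm38.p6), 5′ to 3′ on the strand of each gene. Those of *Fgb* and *Fgg* end at the base before the RefSeq start site, and that of *Fga* ends before the GENCODE start. Capitals mark the motifs searched on both strands in the 250 bases before each RefSeq start. For *Fga* only 173 bases are printed, chr3:83025903-83026075, since the 77 bases nearest the RefSeq start lie inside the GENCODE model. The windows of *Fgb* (chr3:83049864-83050113, minus strand) and *Fgg* (chr3:83007474-83007723, plus strand) are whole.
Fgb: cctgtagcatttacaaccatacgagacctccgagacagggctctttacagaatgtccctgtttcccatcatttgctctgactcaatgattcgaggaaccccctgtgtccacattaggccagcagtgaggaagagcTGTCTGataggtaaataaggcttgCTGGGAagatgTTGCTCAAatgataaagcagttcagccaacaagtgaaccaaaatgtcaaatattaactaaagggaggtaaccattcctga
Fga: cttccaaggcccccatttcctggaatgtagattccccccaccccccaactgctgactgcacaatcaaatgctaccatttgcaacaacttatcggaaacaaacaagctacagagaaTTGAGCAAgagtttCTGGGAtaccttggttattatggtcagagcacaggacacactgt
Fgg: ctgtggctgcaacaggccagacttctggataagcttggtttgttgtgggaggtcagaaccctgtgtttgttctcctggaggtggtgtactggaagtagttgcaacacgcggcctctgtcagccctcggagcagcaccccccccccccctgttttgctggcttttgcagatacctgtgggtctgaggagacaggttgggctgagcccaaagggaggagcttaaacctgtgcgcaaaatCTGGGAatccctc

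The *Fgb* window held 3 of the motifs, the *Fga* window 2 and the *Fgg* window 1. Positions are counted from the RefSeq start, so for *Fga* they include the 77 bases not printed. The C/EBP core TTGCNNAA began 80 bases before the start in *Fgb* and 135 in *Fga*. The IL-6 response element core CTGGGA was found in all 3, at 91, 121 and 13 bases before the start of *Fgb*, *Fga* and *Fgg*. The SMAD core CAGACA was found in *Fgb* alone among the 3, as TGTCTG on the opposite strand at 115, and TATAAA in none. No match overlapped another. Of 32851 promoter windows of the same length, 9.56% held the C/EBP core, 27.0% CTGGGA, 17.1% CAGACA and 12.4% TATAAA, so these are descriptions of letters and not of bound sites.

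Of the 3 chains, only *Fgb* was clearly expressed in CTL RTECs, and its transcript was lower in every TGF-β1 culture. *Fgb* had 949, 1462 and 727 reads in CTL replicates 1, 2 and 3 and 18, 19 and 13 reads in TGF-β1 replicates 1, 2 and 3. The groups lay far apart, and the lowest CTL culture held more than every TGF-β1 culture by a wide margin. In normalized counts the CTL cultures stood at 917, 1405 and 793 and the TGF-β1 cultures at 18.3, 19.7 and 12.2, with means of 1038 ± 324 and 16.7 ± 3.97 (SD, n = 3). The log2 difference, TGF-β1 minus CTL, was -5.95 (SE 0.32), a 62.0-fold lower level, and with the replicate number as a block it was -5.94 (SE 0.12). Without both replicate 2 cultures it was -5.81. In bulk RNA, fewer *Fgb*-expressing cells and less *Fgb* RNA per cell cannot be told apart.

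The fall was of like size in each pair of same-numbered cultures. *Fgb* was 50.1-fold lower in replicate 1, 71.4-fold in replicate 2 and 64.9-fold in replicate 3, log2 ratios of -5.65, -6.16 and -6.02. Within each group, replicate 2 had the highest and replicate 3 the lowest *Fgb* level. On the log2 scale the deviations from the group mean were -0.14, 0.48 and -0.35 in CTL and 0.16, 0.27 and -0.42 in TGF-β1. The replicate 2 cultures thus held the most *Fgb* and the least *Epcam*, and the part of cell composition in these deviations was not tested.

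*Fga*, the α chain, was near the floor in CTL and unread in TGF-β1. It had 19, 2 and 6 reads in CTL replicates 1, 2 and 3 and 0 reads in each TGF-β1 culture. Its normalized level in CTL was 8.94 ± 8.47 (SD, n = 3), a spread about as large as the mean. With the 27 CTL reads taken as exact, the floor of 3 counts for the whole TGF-β1 group makes *Fga* at least 9.54-fold lower per read on genes. The counting error of the CTL reads and the spread between CTL cultures are not in this bound, so the true limit is lower. That bound rests in part on single libraries, being 4.32 if CTL replicate 1 is left out and 6.21 if TGF-β1 replicate 3 is. *Fga* did not follow *Fgb* within CTL, since its highest culture was replicate 1 and its lowest replicate 2, the culture with the most *Fgb*.

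*Fgg*, the γ chain, had 0 reads in all 6 libraries. The CTL libraries together held 92430399 reads on genes and the TGF-β1 libraries 97978763, so a count of 0 allows up to 0.0325 CPM and 0.0306 CPM. No difference between the groups can be read for *Fgg* at this depth.

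**Figure D1:**
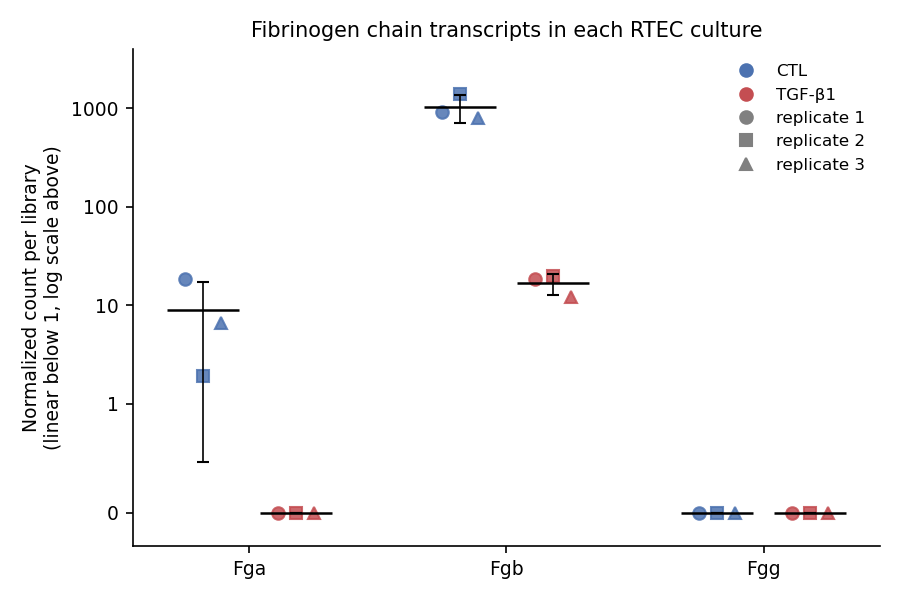
Normalized counts of *Fga*, *Fgb* and *Fgg* in each culture (y axis linear below 1 and log-scaled above), CTL in blue and TGF-β1 in red, with symbols for the replicate number. Horizontal bars are group means and vertical bars ± SD (n = 3). *Fgb* falls from 793 to 1405 in CTL to 12.2 to 19.7 in TGF-β1, *Fga* is read only in CTL, and *Fgg* is at 0 throughout.

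The chains were therefore far from equal in RTECs, where a secreted fibrinogen molecule needs each of them. Per kb of exon, *Fgb* exceeded *Fga* 39.5-fold in CTL replicate 1 (95% counting interval 25.1 to 65.8), 578-fold in replicate 2 (160 to 4773) and 95.7-fold in replicate 3 (43.8 to 262). These ratios rest on 19, 2 and 6 *Fga* reads. *Fgb* made up 99.1% (98.8 to 99.4%, exact binomial interval) of the 3165 chain reads in CTL, and *Fga* 0.853% (0.563 to 1.24%). Per kb, *Fgb* stood at least 575-fold above *Fgg* in CTL, and in TGF-β1, where all 50 chain reads were *Fgb*, at least 9.16-fold above *Fgg* and 13.2-fold above *Fga*. Reads carry no molecular identifiers, so these intervals and floors cover counting error only. The bounds from floors take the *Fgb* reads as exact.

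Among all transcripts *Fgb* was a moderately abundant one in CTL. Ranked per kb of exon, 20.6 to 30.5% of 21547 protein-coding genes lay above it in the CTL cultures and 58.7 to 61.1% in the TGF-β1 cultures. Its log2 difference was the third lowest of 13554 genes with a mean of at least 1 CPM. Only *Ugt2b37* (-7.15) and *Ugt2b5* (-6.26), UDP-glucuronosyltransferases, were lower. They belong to a family of near-identical copies, and reads with several alignments were counted for no gene. After *Fgb* came *Slc6a18* (-5.24), a neutral amino acid transporter of the proximal tubule, *Ugt2b34* (-5.11), the potassium channel *Kcna5* (-5.07), *Rasl11a* (-4.81), the BMP and Wnt antagonist *Sostdc1* (-4.72), the metalloprotease *Adamts15* (-4.58) and the chemokine receptor *Ackr3* (-4.48). Summed over the CTL libraries, *Fgb* had more reads than all of these but *Ackr3*. *Rasl11a* came nearest to its counts, with 969, 1438 and 585 reads in CTL and 38, 37 and 30 in TGF-β1.

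**Figure D2:**
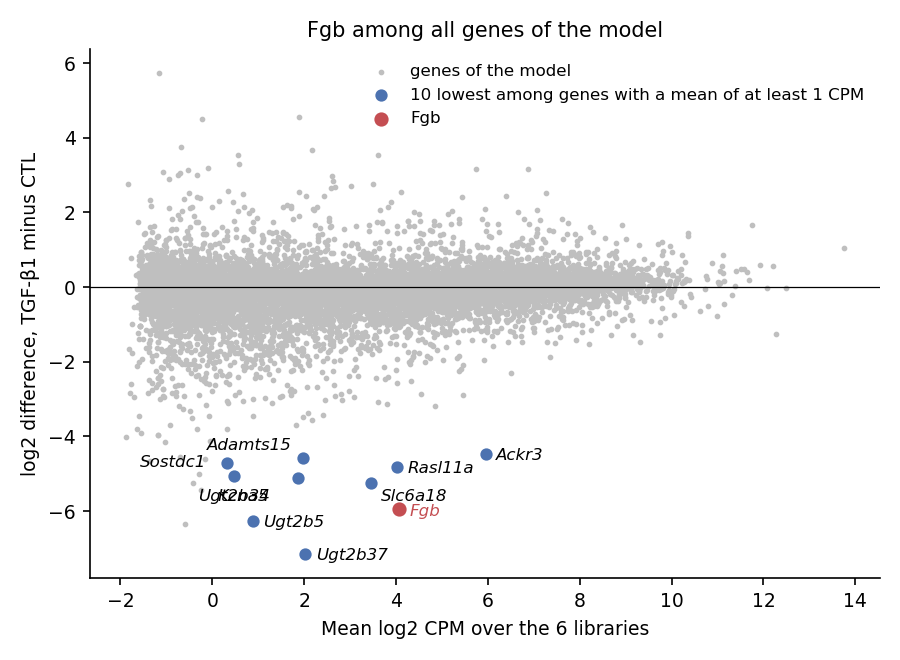
Log2 difference, TGF-β1 minus CTL, against mean log2 CPM over the 6 libraries for each of the 15862 genes of the model. The 10 genes with the lowest differences among those with a mean of at least 1 CPM are named, and *Fgb* (red) lies at -5.95.

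By the measure of likeness used, Pearson's r over the 6 libraries to the mean log2 CPM of the 3 chains, the 10 most alike of 13553 genes were *Smc6*, *Rapsn*, *Tubb4b*, *Hpse*, *Ghr*, *Pacsin2*, *Sept4*, *Pccb*, *Psd* and *Apela*, with r from 0.991 to 0.998. The libraries form 2 clusters, so r mainly records a gene that was steady within each group and lower with TGF-β1, whatever the size of its fall. *Smc6*, first on the list, differed by -0.11 on the log2 scale (adjusted p = 0.114, edgeR's quasi-likelihood test), while *Apela* differed by -3.12 (adjusted p = 0.00247) and *Hpse*, the heparan sulfate-cleaving enzyme heparanase, by -2.59 (adjusted p = 0.00379). When likeness was measured to *Fgb* alone, a choice made after seeing the data, the list became *Plac8*, *Lhfp*, *Rasl11a*, *Epor*, *Cdca3*, *Tinagl1*, *Sgo1*, *Kif11*, *Smyd4* and *Spc25* (r from 0.9965 to 0.999), and 0 of 10 genes were shared. The list thus changed wholly with whether the few *Fga* reads entered the profile.

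Of the 5 neighboring protein-coding genes in the model, 0 passed the threshold in edgeR and in limma-voom and 1, lower, in DESeq2, while 2 had an unadjusted p under 0.05 in edgeR. Over all 15862 genes, edgeR called 793 higher and 1061 lower, limma-voom 738 and 1027, and DESeq2 1201 and 1521. With RLE scaling in edgeR, 4516 genes had an unadjusted p under 0.05, and the number with the main scaling is not given here. *Plrg1*, a spliceosome gene which starts 5.659 kb from the start of *Fgb* and runs the other way, had 2103, 1998 and 1844 reads in CTL and 2090, 2118 and 2337 in TGF-β1. Its log2 difference was 0.13 (SE 0.04, adjusted p = 0.125), with normalized levels that were slightly higher in each TGF-β1 culture. On the same side *Dchs2*, a cadherin, differed by 0.40 (SE 0.36, adjusted p = 0.52) and *Sfrp2*, a secreted Wnt modulator, had 292, 507 and 133 reads in CTL and 147, 157 and 154 in TGF-β1 (adjusted p = 0.18).

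On the other side, beyond *Fgg*, *Lrat* had 0 to 2 reads and *Rbm46* 5 to 19 reads in every library. *Npy2r*, a neuropeptide Y receptor whose start lies 502 kb from that of *Fgb*, had 252, 466 and 129 reads in CTL and 87, 103 and 59 in TGF-β1. Its log2 difference of -1.74 (SE 0.47) did not pass the threshold (adjusted p = 0.0688) and passed it with the replicate block (adjusted p = 0.000164).

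**Figure D3:**
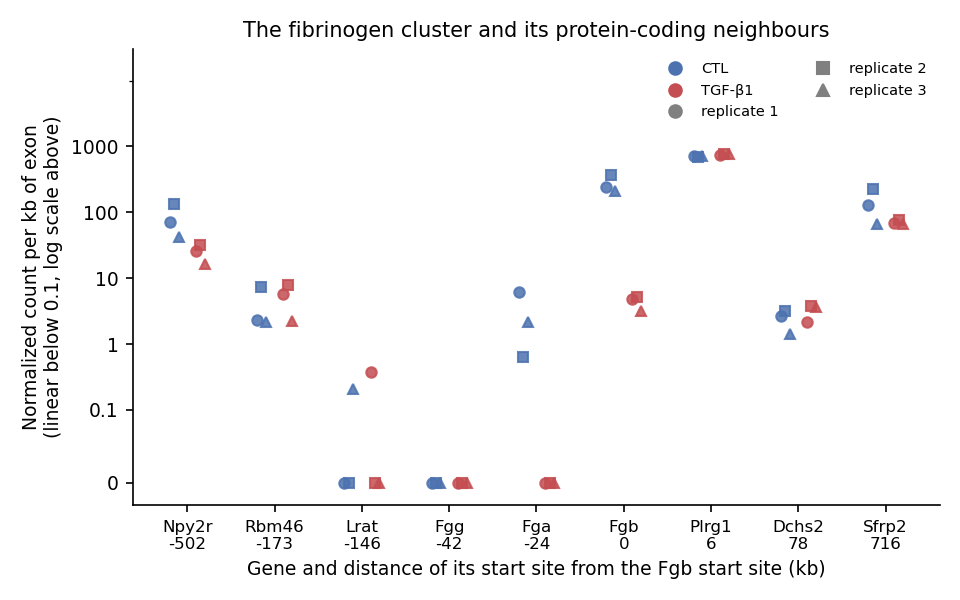
Normalized counts per kb of exon (linear below 0.1, log-scaled above) of the 3 chain genes and the 3 nearest protein-coding genes on each side, in order along chromosome 3, with the distance of each start site from the *Fgb* start site in kb. Points are single cultures, CTL in blue and TGF-β1 in red. *Fgb* separates the groups widely, while *Plrg1*, with its start 5.659 kb away, differs by 0.13 on the log2 scale.

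Hepatocyte markers were sparse or unread, apart from *Gc*. Of 12 hepatocyte markers, 6 had 0 reads in all 6 libraries (*Apoa1*, *Ttr*, *Ahsg*, *Serpina1a*, *Serpina1b* and *Serpina1c*), and *Alb*, albumin, had 0 to 2 reads. The list summed to 2.70 to 7.21 CPM in CTL and 1.19 to 2.84 CPM in TGF-β1. *Gc*, the vitamin D-binding protein, had 135, 65 and 195 reads in CTL and 39, 14 and 79 in TGF-β1, and *Apoa2*, the next most read, had 3 to 14 reads in each library. The CTL culture with the most *Gc* reads, replicate 3, had the fewest *Fgb* reads. Platelet and megakaryocyte markers summed to 8.56 to 18.7 CPM in CTL and 10.5 to 17.1 CPM in TGF-β1, with 0 of 3 genes in the model past the threshold in edgeR, DESeq2 or at an unadjusted p under 0.05. In the CTL libraries *Ppbp*, a platelet chemokine, had 292, 124 and 448 reads, *Gp1bb* 58, 84 and 36 and *Itga2b* 43, 60 and 44, while the platelet glycoprotein genes *Gp9* and *Gp6* had 0. *Gc*, the only hepatocyte marker in the model, differed by -1.64 on the log2 scale (adjusted p = 0.166, and 0.000173 with the replicate block).

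The genes around fibrinogen were read as 9 lists by role, 131 genes in all, of which 82 were in the model. With TGF-β1, 7 of the 82 were higher and 17 lower (edgeR, adjusted p under 0.05), against 5% and 6.69% of all 15862 genes, 793 higher and 1061 lower. With the replicate block the counts were 17 higher and 33 lower, against 15.1% and 19.1% of all genes. DESeq2 gave 11 higher and 20 lower, against 1201 and 1521 over all genes. In limma-voom they were 8 and 16, against 738 and 1027. Without both replicate 2 cultures they were 13 and 24, against 1084 and 1290 over all genes. Of the 63 genes named with a test, 1 then lost its call (*Kng2*, adjusted p = 0.0598) and 7 gained one, *Angptl4*, *Angptl2*, *F3*, *Thbd*, *Plau*, *Spp1* and *Gc*, with adjusted p from 0.00561 to 0.0473. Without CTL replicate 1, 2 or 3 the lower list genes were 1, 11 or 12, against 186, 612 or 807 over all genes. Without TGF-β1 replicate 1, 2 or 3 they were 2, 11 or 4, against 193, 693 or 566. Both the list count and the count over all genes thus depend on single cultures. Of the 24, 6 passed whichever culture was left out, among them *Tnc*, *Itgb3*, *Fn1*, *Il11* and *Serpina3n*, and each of the others lost its call at least when CTL replicate 1 was missing. With scaling by library size only, the split over all genes was 508 higher and 1467 lower.

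The acute phase list, the liver genes that fibrinogen is classed with, held more lower than higher genes. Of its 23 genes 9 were in the model, 4 were lower and 0 higher (edgeR; 5 and 1 at an unadjusted p under 0.05, 5 and 0 in DESeq2), with a median log2 difference of -1.15 against -0.0028 over all genes, and with the replicate block 7 were lower and 1 higher. *Serpina3n*, a protease inhibitor, fell from 1681, 2020 and 1171 normalized counts to 405, 483 and 379 (log2 -1.94, SE 0.22, adjusted p = 0.00712). *Lbp*, which binds bacterial lipopolysaccharide, fell by 2.39 on the log2 scale (adjusted p = 0.0201), complement *C3* by 2.22 (adjusted p = 0.0492), and *Serpina3m* changed by -1.80 (adjusted p = 0.023). In none of the 4 did the groups overlap, but these genes were called on the same values. Groups also lay apart in genes of the list that did not pass, and the share of all genes without overlap was not counted. *Lcn2*, the most abundant per kb, was called only with pairing by number, with 13523, 4027 and 22080 normalized counts in CTL and 6393, 1982 and 9451 in TGF-β1. The *Lcn2* groups overlapped (log2 -1.15, adjusted p = 0.376), and each pair fell (adjusted p = 7.11e-06 with the replicate block). The serum amyloid genes *Saa1*, *Saa2* and *Saa3*, of which the first pair are near-identical copies, had 0 reads in all libraries.

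IL-6-type signaling is the pathway that raises fibrinogen in the liver. Of its 13 genes 11 were in the model, and 4 were lower and 1 higher (5 and 2 with the replicate block), with a median log2 difference of -0.07. *Lifr*, the LIF receptor, stood at 1797, 3035 and 1146 normalized counts in CTL and 540, 546 and 513 in TGF-β1 (log2 -1.90, SE 0.35, adjusted p = 0.0247). *Osmr*, the oncostatin M receptor, fell by 1.17 (adjusted p = 0.0182). *Il6st*, the shared signal chain gp130, changed by -0.87 (adjusted p = 0.021) and *Socs3*, the feedback inhibitor that STAT3 induces, by -0.88 (adjusted p = 0.0184). The other receptor genes did not pass. *Il6ra*, the IL-6 receptor, differed by 0.46 (adjusted p = 0.0748, and 0.027 with the replicate block), and *Il11ra1* by -0.39 (adjusted p = 0.122, and 0.00724 with the block). *Il11*, a ligand of the same family, rose from 597, 970 and 660 to 6270, 9400 and 4376 normalized counts (log2 3.17, SE 0.34, adjusted p = 0.00692). *Il6* had 2 reads in each CTL culture and 5, 19 and 8 in TGF-β1, below the filter.

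Of 13 transcription factor genes known for the fibrinogen promoters, 12 were in the model and 2 were lower, with a median of -0.57. *Cebpd* fell from 1461, 1380 and 974 to 656, 499 and 480 normalized counts (log2 -1.22, SE 0.19, adjusted p = 0.017), and *Cebpb* fell by 0.42 (adjusted p = 0.0484). With the replicate block 7 of the 12 were lower. *Stat3* differed by -0.10 (adjusted p = 0.52).

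**Figure D4:**
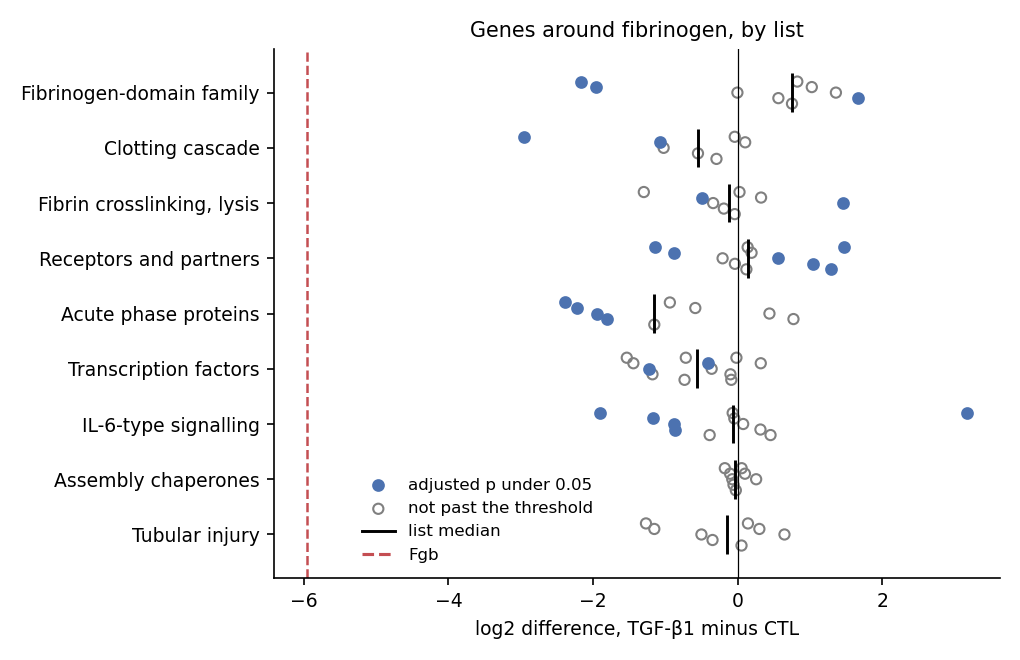
Log2 difference, TGF-β1 minus CTL, of each gene in the model by list. Filled points passed adjusted p under 0.05 in edgeR, open points did not, black bars are list medians and the dashed line is *Fgb* at -5.95. The acute phase list has its median at -1.15, and every gene plotted lies above *Fgb*.

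Genes that act on fibrin or share its fold went both ways. In the family with a fibrinogen-like domain, 9 of 19 genes were in the model, 1 higher and 2 lower, with a median of 0.75. The matrix protein tenascin-C, *Tnc*, rose from 55675, 49457 and 50769 to 174031, 167777 and 151258 normalized counts (log2 1.66, SE 0.09, adjusted p = 0.00121), while the vessel ligand *Angpt2* changed by -1.96 (adjusted p = 0.0261) and *Angptl7* by -2.17 (adjusted p = 0.0343). With the replicate block 5 were higher and 2 lower, and the 2 most abundant per kb after *Tnc*, *Angptl4* (log2 1.36, adjusted p = 0.0975) and *Angptl2* (log2 1.03, adjusted p = 0.133), passed there (adjusted p = 0.000408 and 5.74e-06).

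Most genes of the clotting cascade were below the filter, with 7 of 19 in the model and 0 higher and 2 lower in edgeR, a median of -0.55. The list still summed to 452 to 744 CPM in CTL. DESeq2, limma-voom and an unadjusted p under 0.05 gave the same counts of higher and lower genes. Thrombin's own gene, *F2*, had 0 to 1 reads in each library. *Pros1*, protein S, an anticoagulant cofactor, fell by 1.07 (adjusted p = 0.0158), from 4783, 5499 and 3581 to 2145, 2435 and 2008 normalized counts. *Kng2*, a kininogen near the filter, fell by 2.95 (adjusted p = 0.0302) on 0 to 2.82 normalized counts in TGF-β1, a call lost with any 1 culture left out. *F3*, tissue factor, the most abundant per kb, differed by -1.02 (adjusted p = 0.248) and *Thbd*, thrombomodulin, by -0.55 (adjusted p = 0.351), and both passed with the replicate block (adjusted p = 0.00138 and 0.000648).

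Among genes of fibrin crosslinking and lysis, 8 of 14 were in the model, 1 higher and 1 lower, with a median of -0.12. *Plat*, tissue plasminogen activator, fell by 0.50 (adjusted p = 0.0487). *Plau*, urokinase, differed by -1.30 (adjusted p = 0.165, and 0.000127 with the replicate block). *Plg*, which encodes plasminogen itself, had 0 to 3 reads in each library.

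Of 14 receptors and binding partners of fibrinogen, 11 were in the model, 4 higher and 2 lower, with a median of 0.14. The integrin genes *Itgb3*, *Itga5* and *Itgb1* rose by log2 differences of 1.48 (adjusted p = 0.00217), 1.29 (adjusted p = 0.0429) and 0.56 (adjusted p = 0.0228), and *Fn1*, fibronectin, by 1.04 (adjusted p = 0.00379). *Tlr4*, the innate receptor, fell by 0.88 (adjusted p = 0.0144). The 8 chaperones and disulfide isomerases of chain assembly passed in 0 cases in edgeR, DESeq2 and limma-voom, with a median of -0.04, and 0 had an unadjusted p under 0.05. *Calr*, calreticulin, differed by -0.06 (adjusted p = 0.742) and *Pdia3* by 0.10 (adjusted p = 0.478), and with the replicate block 1 of the 8 was higher.

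The tubular injury list, in which fibrinogen is often read as a marker, had 0 of 8 genes past the threshold in edgeR and limma-voom, 1 higher and 1 lower both in DESeq2 and at an unadjusted p under 0.05 in edgeR, and a median of -0.15. With the replicate block 2 were higher and 3 lower. *Spp1*, osteopontin, the most abundant per kb, differed by -1.27 (adjusted p = 0.0835, and 0.000343 with the replicate block).

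Some markers of the tubule were lower beside *Fgb* and others did not pass. Of 10 proximal tubule markers 6 were in the model, 3 lower and 3 not past the threshold, against 6.69% of all genes lower. The list had a median log2 difference of -1.08 and summed to 88.4 to 127 CPM in CTL and 35.5 to 49.6 CPM in TGF-β1. *Cubn*, among those not lower, had means of 142 normalized counts in CTL and 152 in TGF-β1. *Slc6a18* stood at 674, 1145 and 232 reads in CTL and 19, 16 and 18 in TGF-β1 (log2 -5.24, SE 0.64, adjusted p = 0.00891). *Aqp1*, a water channel, fell by 2.91 (adjusted p = 0.00919) and *Lrp2* by 0.93 (adjusted p = 0.0165). The order of *Slc6a18* over the CTL cultures was that of *Fgb*, shared by *Lrp2* and the collagen gene *Col1a1* and not by *Aqp1*. Of 7 pan-tubule markers 2 were lower, *Cdh16* from 9574, 7933 and 7333 to 3182, 2206 and 3366 normalized counts (adjusted p = 0.00922) and *Pax8* by -0.77 on the log2 scale (adjusted p = 0.00436). The other 5 did not pass, with a list median of -0.24, and *Krt8* had means of 17597 normalized counts in CTL and 18333 in TGF-β1. With the replicate block 5 of the 7 were lower, against 19.1% of all genes. Of 7 fibroblast markers 6 were in the model and 0 passed in edgeR, DESeq2 or at an unadjusted p under 0.05, 2 being higher and 2 lower with the replicate block, with sums of 1063 to 2625 CPM in CTL and 1061 to 3224 CPM in TGF-β1. Of 7 leukocyte markers 6 were in the model and 1, *Csf1r*, was lower (log2 -1.32, adjusted p = 0.0238), with sums of 9.54 to 22.0 CPM in CTL and 6.53 to 18.0 CPM in TGF-β1. Endothelial markers summed to 2.70 to 4.84 CPM in CTL and 2.57 to 4.36 CPM in TGF-β1, and 0 of 3 in the model passed in edgeR, DESeq2 or at an unadjusted p under 0.05. The part of these shifts in the fall of *Fgb* was not tested.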

How the data were processed

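Counts per gene were deposited by the authors for each of the 6 libraries and are raw reads. Per the labels and methods, reads were trimmed with Trim Galore, aligned to GRCm38 with STAR 2.4.1d and counted with HTSeq 0.6.1. The strand setting of the counting is not given in the sources used here. Reads naming no gene (25.4 to 25.9% of each library, mostly reads with several alignments) were left out of library sizes. Gene symbols and models came from GENCODE M21, which matched 46005 of 46517 identifiers, and promoter windows from RefSeq.

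Counts were analyzed in R 4.3.3 with edgeR 4.0.16 (filterByExpr, TMM scaling, robust glmQLFit). The two-sided quasi-likelihood F test (glmQLFTest) compared all 6 cultures without covariates. Its p-values were adjusted by Benjamini-Hochberg for 15862 genes and called under 0.05. Normalized counts are counts scaled to the mean effective library size, and log2 CPM used a prior count of 2. Alternatives were DESeq2 1.42.0, limma-voom (limma 3.58.1), RLE scaling, library size only, other count filters, a threshold of 0.01, the replicate number as a block, and leaving out cultures. The procedure was tested on simulated data. The deviations of same-numbered cultures from their group means correlated across genes (r = 0.34, 0.684 and 0.572, against -0.617 to 0.215 for different numbers). Taking deviations within groups of 3 in itself lowers the values for different numbers. Replicate 1 stood out least, at 0.34 against 0.215 for CTL replicate 1 with TGF-β1 replicate 3. The replicate block takes the numbers as pairs on this pattern, and the labels do not say what a number stands for. The paired result is printed where it changed a call, as for *Npy2r* (adjusted p = 0.000164).

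The chain genes, lists and motifs were chosen with earlier results of these data known. Named genes are the chains, up to 5 of each list that passed or were most abundant per kb, cell type markers, the 3 protein-coding neighbors on each side, the 10 most alike and the 10 lowest log2 differences. *Il6*, *Il6ra*, *Il11ra1*, *F2*, *Plg*, the *Saa* genes and the genes alike to *Fgb* alone were named outside that rule after their values were seen. *Klkb1* was not analysed here, and some list genes and motifs are not reported here. Figures were drawn with matplotlib 3.10.9.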

Additional observations from a re-analysis of the deposited data

How the results depend on the processing

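The log2 difference of *Fgb* lay between -6.11 and -5.67 in all alternatives run, including each culture left out. Over all genes, 793 were higher and 1061 lower; library size only gave 508 higher, DESeq2 1201 higher, the replicate block 2388 and 3037, and a threshold of 0.01 gave 127 and 192. Of the list genes, 7 were higher and 17 lower. DESeq2 gave 11 and 20, the replicate block 17 and 33, and a threshold of 0.01 left 5 higher and 1 lower. Leaving out 1 culture, or both of 1 number, gave 0 to 1084 genes higher and 0 to 1290 lower, and 0 to 13 list genes higher and 0 to 24 lower. Both counts were 0 over all genes without both replicate 1 cultures (edgeR, with 1938 genes at an unadjusted p under 0.05), a fit on fewer libraries. Of 63 named genes with a test, 45 passed, 56 passed with the replicate block and 21 passed whichever single culture was left out. The block removed no call. *Stat3* and *Calr*, neither past the threshold, changed sign on leaving out cultures, with ranges of -0.19 to 0.0043 and -0.16 to 0.014 on the log2 scale.

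Depth limits *Fgg* and *Fga*, where a count of 0 allows up to 0.0325 CPM per group of libraries, and 13 to 19 reads carry the *Fgb* level with TGF-β1.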
